A study of Mus musculus with 12 samples.

Results

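The SOX transcription factors bind DNA through a shared HMG box and fall into groups by the likeness of that box. The genes described here are 10 SOX genes outside the SoxB group: Sox4 and Sox12 (SoxC), Sox5, Sox6 and Sox13 (SoxD), Sox8 and Sox9 (SoxE), Sox17 and Sox18 (SoxF) and Sox30 (SoxH). They were taken by symbol from the platform annotation, and all 10 were found among the 22180 genes measured. The question was whether other SOX groups respond when Sox3, a SoxB1 gene on the X chromosome, is lost or replaced. Whole testes of C57BL/6N mice were taken at 2 weeks of age, and RNA of each went onto a separate Affymetrix whole-transcript array. There were 3 Sox3-KO testes (KO) and 3 Sox3-Sox2KI testes (KI), both from lines made with CRISPR/Cas9, of which KI by its name carries Sox2 at the Sox3 locus. There were also 6 WT testes, of which WT 1, WT 2 and WT 3 were littermates of KI mice and WT 4, WT 5 and WT 6 were littermates of KO mice. The labels name no other allele or agent in any group. The labels name no promoter or Cre that would limit the change to a cell type. The labels do not say how many founder animals stand behind either line, and they call the arrays biological replicates.

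Several of these genes are known as markers or regulators of testis cell types. Sox9 sets the fate of Sertoli cells, the somatic cells that nurse the germ cells, and Sox8 acts beside it. SoxD proteins lack a transactivation domain and are known from cartilage as partners of SOX9. SoxF genes are known from endothelium, SoxC genes from embryonic progenitor cells, and Sox30 from meiotic and postmeiotic male germ cells. At 2 weeks the most advanced germ cells are in meiosis, so a whole testis holds somatic cells, spermatogonia and spermatocytes.

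Levels are log2 expression values, so a difference of 1 is a doubling, and the level of a gene cannot be set against that of another gene, since probes differ in brightness. Differences are given on the log2 scale, with the mutant on top. The 95th percentile of 1105 olfactory receptor genes, a family with little expression outside the nose, was 5.33 and served as a background limit. The mean over the 12 arrays lay above it for all 10 genes, with Sox17 at 5.72 and Sox5 at 6.05 the closest. Array medians lay between 5.74 and 5.82. The targeted gene, Sox3, was between 6.57 and 6.65 in the 3 KO testes, against 7.21 to 7.36 in the 6 WT testes. The array labelled KI 1 read 7.26 for Sox3, inside the WT range, while KI 2 and KI 3 read 6.75 and 6.95. Where the Sox3 probes lie relative to the altered sequence is not known here, so values of KI testes are given below with and without that array. Among all genes 1078 passed in KO against WT testes (limma, adjusted p under 0.05), and none in KI against WT. The KO count rested on single arrays, and fell to 36 without WT 1, 35 without WT 2, 18 without WT 3, 32 without WT 5, 3 without KO 1 and 2 without KO 3. It was 1748 without WT 6, 2323 without KO 2, 608 without KI 2 and 463 without KI 3. With the KO littermates as the only controls it was 2, or 0.00902% of all genes.

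In KO testes Sox30 fell, Sox5 rose and the other 8 genes did not pass. This made 1 of 10 genes higher, where 2.52% of all genes were called higher, and 1 of 10 lower, where 2.34% of all genes were called lower, or 4.86% in either direction. At an unadjusted p under 0.05 there were 7 of the 10, against 24.2% of all genes. Exact permutation tests of single genes, two-sided, gave a p under 0.05 for 6 of the 10, against 18.8% of all genes, and in KI testes for none of the 10, against 6.06% of all genes. With the KO littermates as controls none of the 10 passed and 3 had an unadjusted p under 0.05, against 15.7% of all genes. By sign alone, 8 of the 10 changes lay above 0 and 2 below, with a median of 0.26, where the median of all genes was 0.04. The signs of all 10 were the same with arrays centred on their medians and with a new quantile normalization. The 8 positive changes ran up to 0.38. In KI testes 9 of the 10 changes lay above 0, with all WT testes or with the KI littermates as controls. Without KI 1 the signs of Sox4, Sox12, Sox5 and Sox30 against all WT testes turned. The share of all genes with a change above 0 was not counted for either mutant. Against all 6 WT testes no KI change was further from 0 than 0.18. Against the KI littermates Sox30 was at -0.34 and Sox9 at 0.21.

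**Figure D1:**
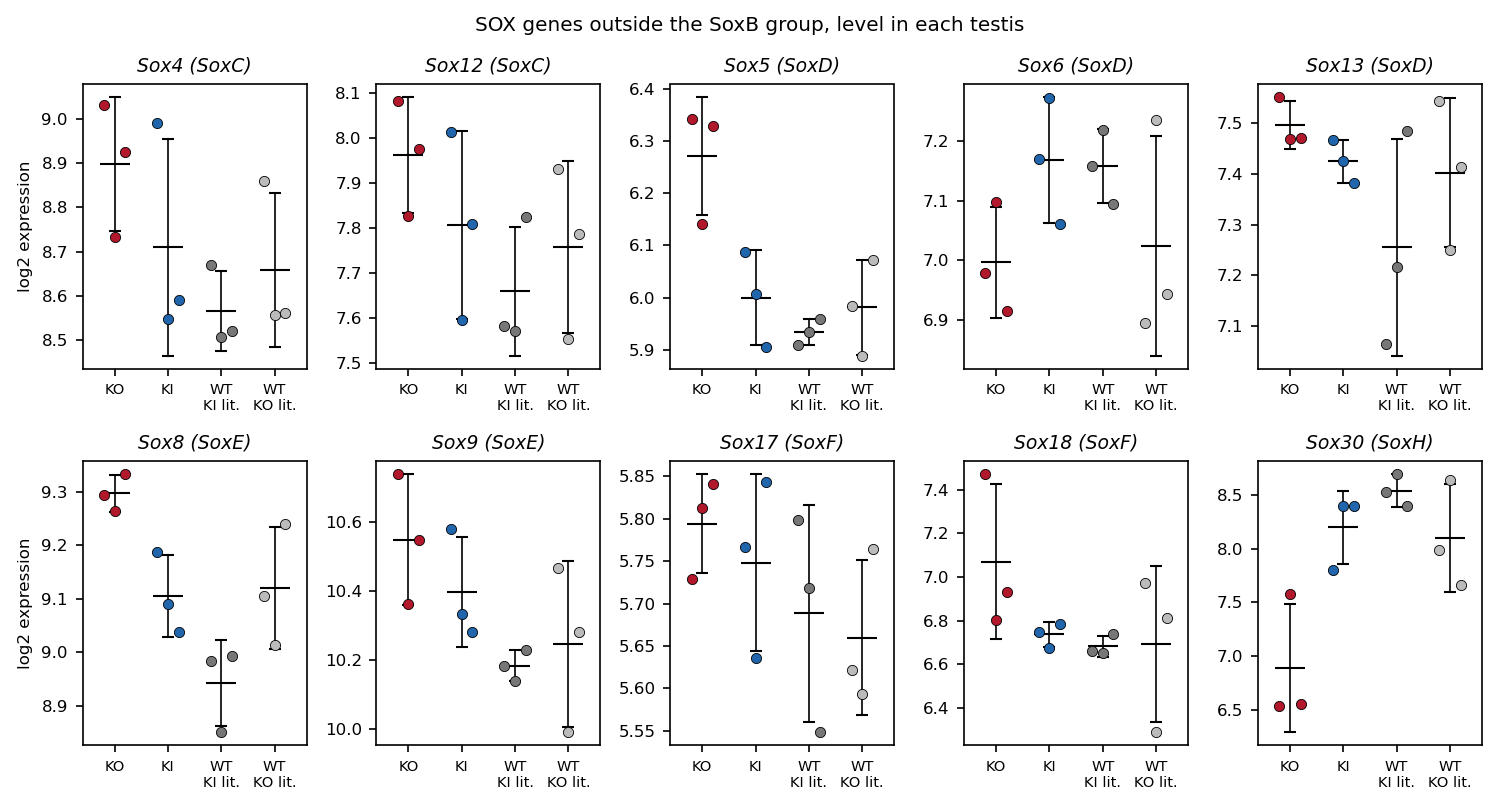
Level of each SOX gene in each testis, as log2 expression on a separate vertical axis per gene, for KO, KI, WT of KI litters and WT of KO litters. Points are single arrays, long bars are group means and whiskers are 1 SD (n = 3 per group). The KO points of Sox30 all lie under 7.6, below every WT point, and those of Sox5 and Sox8 lie above every WT point.

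Sox30, the only SoxH gene and known as a transcription factor of male germ cells, had the largest difference of the 10 genes. Its level was 6.54, 7.58 and 6.55 in KO 1, KO 2 and KO 3, and 7.80, 8.40 and 8.39 in KI 1, KI 2 and KI 3. In the 6 WT testes the lowest level was 7.66, the median 8.46 and the highest 8.69. KO 1 and KO 3 were far under every other testis, KO 2 lay just under the lowest WT testis, and the KO and WT groups did not overlap. Over all genes, 4.59% had all KO testes below all WT testes. The KI testes lay inside the WT range.

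The mean of Sox30 was 6.89 ± 0.60 in KO testes (SD, n = 3) and 8.32 ± 0.41 in WT testes (SD, n = 6). The difference of -1.43 (SE 0.27, 95% interval -2.01 to -0.84) put KO testes 2.69-fold below WT (limma adjusted p = 0.031). Against the 3 KO littermates the difference was -1.20, with all KO testes below them, and it did not pass (limma adjusted p = 0.155). The adjusted p over all genes was also above 0.05 without WT 1 (0.0634), WT 2 (0.0656), WT 3 (0.0594), WT 5 (0.0615), KO 1 (0.123) or KO 3 (0.148), while the difference itself stayed between -1.77 and -1.25 with any 1 array left out. An exact permutation test of Sox30 alone, two-sided, gave p = 0.0238, the smallest that 84 splits of the arrays allow.

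The level of Sox30 was lower in the same testes in which markers of pachytene and later spermatocytes were lower. In KO against WT testes 6 of the 13 measured markers fell, where 2.34% of all genes did, 7 did not pass and none rose. Their median change was -0.87. Against the KO littermates alone none of the 13 passed, and the median was -0.65. The mean of the 13 markers was 6.34, 6.95 and 6.49 in KO 1, KO 2 and KO 3, between 7.13 and 7.50 in KI testes, and between 6.89 and 7.83 in WT testes. Of these markers 10 lay above the background limit, and the sperm protein genes Acrv1, Adam3 and Pgk2 lay under it. The WT testes with the lowest marker means, WT 6 (6.89) and WT 4 (7.03), also had the lowest Sox30 levels of the WT group, 7.66 and 7.99. In RNA of a whole testis, fewer cells of a type and less RNA per cell cannot be told apart. The part of the marker difference in the fall of Sox30 was not tested.

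**Figure D2:**
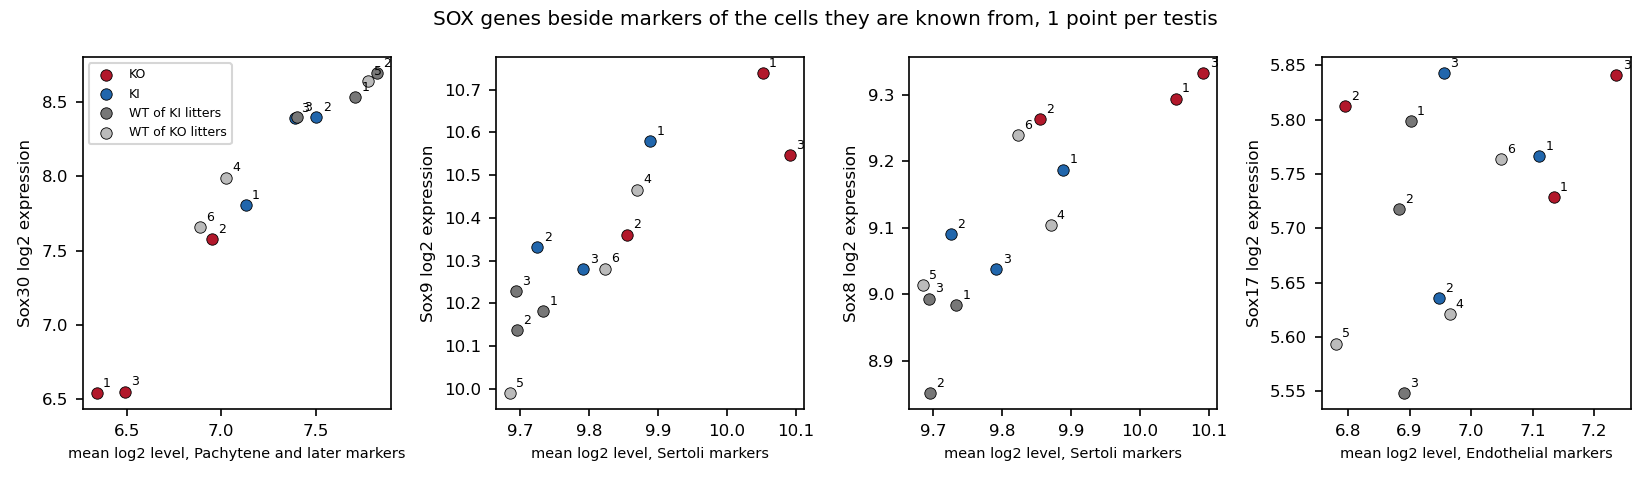
Level of Sox30, Sox9, Sox8 and Sox17 (vertical axes, log2 expression) against the mean log2 level of the marker list of the cells they are known from (horizontal axes), with a point per testis labelled by replicate number. For Sox30 the testes KO 1 and KO 3 stand at the low end of both axes, and KO 2 stands beside WT 6. For Sox9 and Sox8 the testes KO 1 and KO 3 stand at the high end of the Sertoli markers.

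Of the SoxD genes 1 passed, and whether their changes differ from each other was not tested. Sox5, known in long forms from cartilage and in a short form from spermatids, rose in KO testes. Its level was 6.34, 6.14 and 6.33 in KO 1, KO 2 and KO 3, and 6.09, 6.01 and 5.91 in KI 1, KI 2 and KI 3. In WT testes the lowest was 5.89, the median 5.95 and the highest 6.07. All 3 KO testes lay above all WT and KI testes, with KO 2 the nearest to them. Over all genes, 6.87% had all KO testes above all WT testes.

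The mean of Sox5 was 6.27 ± 0.11 in KO testes (SD, n = 3) and 5.96 ± 0.07 in WT testes (SD, n = 6). The difference of 0.31 (SE 0.07, 95% interval 0.16 to 0.47) was a 1.24-fold higher level (limma adjusted p = 0.0353). The difference against the 3 KO littermates was 0.29, which did not pass (limma adjusted p = 0.175). Its adjusted p was above 0.05 without the same arrays as for Sox30, at 0.0728 without WT 1, 0.0715 without WT 2, 0.0669 without WT 3, 0.0701 without WT 5, 0.136 without KO 1 and 0.153 without KO 3. The cluster does not tell the long forms of Sox5 from the short form, because the positions of its probes were not used here.

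Sox6 and Sox13, the other SoxD genes, did not pass. Sox6 was at 6.98, 7.10 and 6.91 in KO testes, 7.17, 7.27 and 7.06 in KI testes, and from 6.89 over a median of 7.13 to 7.23 in WT testes. It was the only gene besides Sox30 with a KO difference under 0, at -0.09 (95% interval -0.29 to 0.10). Sox13 was at 7.55, 7.47 and 7.47 in KO testes, 7.47, 7.43 and 7.38 in KI testes, and from 7.06 over a median of 7.33 to 7.54 in WT testes, a KO difference of 0.17 (95% interval -0.04 to 0.38). The KO and the KI testes each overlapped with the WT testes for both genes. For Sox13 the WT testes were spread more widely (SD 0.18) than the KO (0.05) or KI testes (0.04).

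The sequences before the start sites of Sox30 and Sox5 are shown because these were the genes that passed, and because the factor removed in KO mice is itself a SOX protein. They are the 250 bases before the annotated start from RefSeq (GRCm38.p6), read on the strand of the gene, with any match to the SOX motifs ACAAAG and ACAATG, searched on both strands, in capitals. The Sox30 window is chr11:45980060-45980309 on the plus strand and the Sox5 window chr6:143947107-143947356 on the minus strand.
Sox30: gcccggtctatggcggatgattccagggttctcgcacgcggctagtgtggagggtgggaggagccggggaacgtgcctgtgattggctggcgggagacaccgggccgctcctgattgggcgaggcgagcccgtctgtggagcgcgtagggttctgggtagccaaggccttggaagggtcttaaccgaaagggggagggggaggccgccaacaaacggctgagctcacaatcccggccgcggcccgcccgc
Sox5: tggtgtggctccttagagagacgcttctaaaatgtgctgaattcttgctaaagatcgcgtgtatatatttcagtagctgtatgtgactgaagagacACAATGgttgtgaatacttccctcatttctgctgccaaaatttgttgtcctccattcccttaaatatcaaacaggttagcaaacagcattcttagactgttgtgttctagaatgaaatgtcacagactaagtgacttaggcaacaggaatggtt

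The Sox30 window is rich in G and C (68.0%) with 23 CpG dinucleotides, and the Sox5 window is poor in them (39.6%, 3 CpG), where the median over 32851 RefSeq promoters is 52.4%. The Sox5 window holds 1 SOX match, ACAATG beginning 154 bases before the start, and the Sox30 window holds none. Of all promoter windows of this length, 25.2% hold at least 1. The MYB motif, which is known from meiotic promoters, was searched on both strands as CAACGG and CAACTG. The forms TAACGG and TAACTG were counted as well. Neither window holds any of these, and 23.7% of all windows do. RefSeq promoters were found for 7 of the 10 genes, namely Sox4, Sox5, Sox6, Sox8, Sox12, Sox13 and Sox30. A SOX match was found for Sox5 and for Sox6, which has 6 annotated starts. A match is a run of letters and not a measured binding site.

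Both SoxE genes, which are known from Sertoli cells, were higher in KO testes by sign, and neither passed over all genes. Sox8 was at 9.29, 9.26 and 9.33 in KO testes and 9.19, 9.09 and 9.04 in KI testes. In WT testes it ran from 8.85 over a median of 9.004 to 9.24. All 3 KO testes lay above all WT testes, by a small margin over WT 6. The difference was 0.27 (SE 0.08, 95% interval 0.09 to 0.44, limma adjusted p = 0.0722). For Sox8 alone an exact permutation test, two-sided, gave p = 0.0238. Against the KO littermates it was 0.18, since those had higher Sox8 (9.01 to 9.24) than the KI littermates (8.85 to 8.99).

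Sox9 was at 10.74, 10.36 and 10.55 in KO testes and 10.58, 10.33 and 10.28 in KI testes. In WT testes it ran from 9.99 over a median of 10.21 to 10.47. KO 1 and KO 3 lay above every WT testis and KO 2 among them. The difference of 0.33 (SE 0.11, 95% interval 0.09 to 0.58) did not pass (limma adjusted p = 0.0936). The KI testes all lay above the 3 KI littermates (10.14 to 10.23), as they also did for Sox8 (9.04 to 9.19 against 8.85 to 8.99). For each of the 2 genes an exact permutation test, two-sided, gave p = 0.1, the smallest that 20 splits allow. The share of all genes split in this way was not counted. Set against all 6 WT testes, KI 1 lay above their range for Sox9 and KI 2 and KI 3 inside it.

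Other Sertoli markers were higher in the same KO testes. The mean of 13 measured Sertoli markers, with Sox9 left out, was 10.05, 9.86 and 10.09 in KO 1, KO 2 and KO 3, between 9.72 and 9.89 in KI testes, and between 9.68 and 9.87 in WT testes. Of these markers 2 rose in KO testes, where 2.52% of all genes did, 11 did not pass and none fell. Their median change was 0.20, and all 13 lay above the background limit. With only the KO littermates as controls none of the 13 passed, and the median was again 0.20. Their part in the levels of Sox8 and Sox9 was not tested.

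The SoxC genes Sox4 and Sox12, known from progenitor cells of many tissues, did not pass. Sox4 was at 9.03, 8.73 and 8.93 in KO testes, 8.99, 8.55 and 8.59 in KI testes, and from 8.51 over a median of 8.56 to 8.86 in WT testes. Sox12 was at 8.08, 7.83 and 7.97 in KO testes, 8.01, 7.59 and 7.81 in KI testes, and from 7.55 over a median of 7.68 to 7.93 in WT testes. For each gene 2 of the 3 KO testes lay above every WT testis, and 1 KI testis, KI 1, did so too. The KO differences were 0.28 for Sox4 (SE 0.11, limma adjusted p = 0.146) and 0.25 for Sox12 (SE 0.11, limma adjusted p = 0.189). Sox4 has another cluster on the array, close to the background limit, which read 5.38 to 5.59 in KO, 5.49 to 5.65 in KI and 5.04 to 5.53 in WT testes.

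The SoxF genes Sox17 and Sox18, known from endothelial cells, did not pass. Sox18 was at 7.47, 6.80 and 6.93 in KO testes, 6.75, 6.67 and 6.79 in KI testes, and from 6.29 over a median of 6.70 to 6.97 in WT testes. Its KO difference was 0.38 (SE 0.15, 95% interval 0.05 to 0.71, limma adjusted p = 0.149), the largest positive difference of the 10 genes. It rested on KO 1, the only KO testis above the WT range, and was 0.18 without it. Sox17 was at 5.73, 5.81 and 5.84 in KO testes, 5.77, 5.64 and 5.84 in KI testes, and from 5.55 over a median of 5.67 to 5.799 in WT testes, a KO difference of 0.12. The mean of 9 endothelial markers was 7.13, 6.80 and 7.24 in KO 1, KO 2 and KO 3, between 6.95 and 7.11 in KI testes and between 6.78 and 7.05 in WT testes. None of the 9 markers passed. The marker mean of KO 1, which had the highest Sox18, lay above the WT and KI ranges and under that of KO 3. The part of the endothelial markers in the level of Sox18 was not tested.

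Within each label group the same testes tended to be high in several SOX genes. KO 1 held the highest KO level of Sox4, Sox5, Sox9, Sox12, Sox13 and Sox18, and KI 1 the highest KI level of Sox4, Sox5, Sox8, Sox9, Sox12 and Sox13. Among the KO littermates WT 4 was highest for Sox4, Sox9, Sox12, Sox13 and Sox18. Sox6 and Sox30 went the other way and were both highest in KO 2, KI 2, WT 2 and WT 5 within the 4 label groups. These are orders within groups of 3, given as a description.

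None of the 10 genes passed in KI testes against all WT testes or against the KI littermates (limma, adjusted p under 0.05), where 0.0% of all genes did. At an unadjusted p under 0.05 none of the 10 was reached either, against 5.24% of all genes with all WT testes and 4.51% with the KI littermates as controls. The differences from all WT testes ran from -0.12 for Sox30 to 0.18 for Sox9, with a median of 0.08. The 95% interval of Sox30 in KI testes, -0.71 to 0.47, covers changes of moderate size in both directions, and against the 3 KI littermates it was at -0.34 (95% interval -0.997 to 0.31). For Sox5 it was -0.11 to 0.20, and for Sox9 -0.06 to 0.42. Without the array labelled KI 1 the differences ran from -0.04 for Sox4 to 0.09 for Sox9, and Sox30 turned to 0.08. Sox12 and Sox5 were then at -0.006 and -0.002, set against all WT testes.

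**Figure D3:**
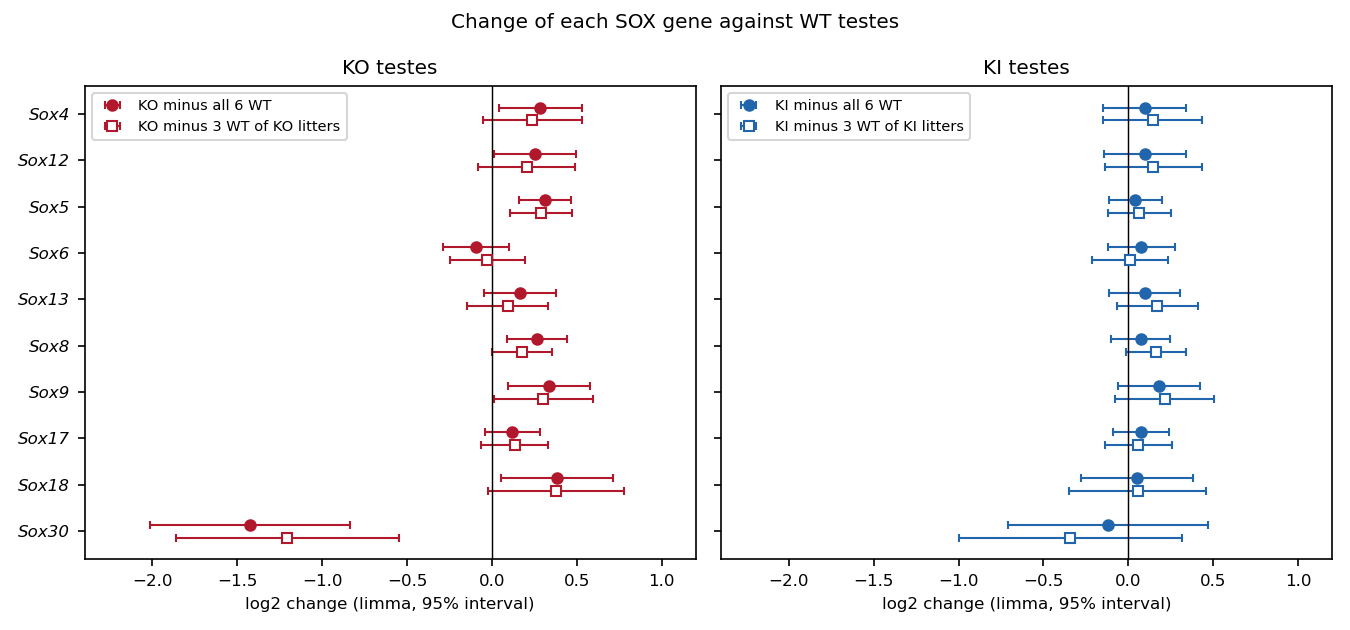
Difference of each SOX gene from WT testes on the log2 scale, for KO testes (left) and KI testes (right). Filled circles are set against all 6 WT testes and open squares against the 3 littermates, with 95% intervals from limma. The KO intervals of Sox30, Sox5 and Sox9 lie clear of 0 with either set of controls, and all KI intervals cover 0.

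The mutants were also compared with each other. Sox30 was 1.31 higher in KI than in KO testes (SE 0.31, 95% interval 0.63 to 1.99), a 2.47-fold difference that did not pass (limma adjusted p = 0.138). All 3 KI testes lay above all 3 KO testes, and the share of all genes split so was not counted. Without KO 2 the difference was 1.65 and passed (limma adjusted p = 0.0283). Without KI 1 it was 1.503 and did not pass (limma adjusted p = 0.169). Sox5 differed by -0.27 (limma adjusted p = 0.155), and by -0.31 without KI 1. None of the 10 genes passed this comparison and none of all genes did, with 0.0% called and 18.0% at an unadjusted p under 0.05. Each mutant effect was then taken against its own littermates and the difference of the effects tested. The effect of KO minus that of KI was -0.86 for Sox30 (95% interval -1.79 to 0.06, limma adjusted p = 0.848) and 0.22 for Sox5 (95% interval -0.04 to 0.48, limma adjusted p = 0.848). Without KI 1 these were -1.06 (95% interval -2.02 to -0.10) and 0.27 (95% interval -0.01 to 0.55), and neither passed (limma adjusted p = 0.832 for both). None of the 10 genes passed this test, which called 0.0% of all genes and 5.83% at an unadjusted p under 0.05.

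The WT testes of the litters gave no call among the 10 genes, or among all genes (0.0%, and 5.29% at an unadjusted p under 0.05). Sox30 was nonetheless 0.44 higher in WT of KI litters than in WT of KO litters (95% interval -0.21 to 1.10), and the difference of Sox8 was -0.18 (95% interval -0.35 to 0.002). The KO difference of Sox30 was -1.65 against WT of KI litters and -1.20 against WT of KO litters, and that of Sox8 was 0.35 and 0.18.

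The remaining SOX genes measured were Sox1, Sox2, Sox3, Sox14, Sox21, Sry, Sox7, Sox10, Sox11 and Sox15. Apart from Sox3, which fell in KO testes (-0.68, SE 0.09, limma adjusted p = 0.0161), none of them passed in either mutant. Against the KO littermates alone Sox3 was at -0.69 and did not pass (limma adjusted p = 0.0983). The median KO change of the 10 against all WT testes was 0.08. Sox7, the SoxF gene beside Sox17 and Sox18, had a KO difference of 0.32 at a level under the background limit, and Sox15 (SoxG) of 0.21. Sox11, the SoxC gene beside Sox4 and Sox12, had 0.12, and the SoxE gene Sox10 had 0.07. The values for Sox14, Sox21, Sry and Sox1 were 0.16, 0.002, 0.01 and 0.02. In KI testes Sox2, the inserted gene, had 0.29 at a level under the background limit. Against the KI littermates alone Sox2 had 0.14, and it was 0.30 higher in WT of KI litters than in WT of KO litters. Set against all WT testes, Sox10 had 0.21 and Sox3 -0.30 in KI testes. The others were 0.11 for Sox7, 0.11 for Sry, 0.05 for Sox1, -0.01 for Sox14, -0.03 for Sox15, -0.06 for Sox11 and -0.17 for Sox21. Without KI 1 none of the 10 passed, Sox3 was at -0.44, Sox2 at 0.20, Sox10 at 0.16 and Sox21 at -0.28, and Sox14 turned to 0.05. The other 5 kept their sign, between -0.09 and 0.17.

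For the 3 genes of smallest p in KO testes, the genes with the most similar levels over the 12 arrays were sought among 14547 genes above the background limit. The 12 arrays share the genotype difference, so a high coefficient also reflects a common KO change. The levels most like those of Sox30 were those of Mdc1, a mediator of the DNA damage response (Pearson r = 0.995), Tesmin, a germ cell protein (0.993), and Stard6, a START domain protein of male germ cells (0.993). These genes fell in KO testes by -0.96, -1.68 and -1.46. Closest to Sox5 were the matrix metalloproteinase gene Mmp2 (0.976), the mitochondrial glutaredoxin gene Glrx2 (0.974) and the zinc finger gene Zim1 (0.966), with KO differences of 0.50, 0.42 and 0.74 that passed. Closest to Sox8 were Prrg3 (0.971), Gm6943 (0.960) and Cmtm3 (0.956), with KO differences of 0.37, 0.29 and 0.50 that passed.

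Genes known to act with or downstream of these SOX factors were counted as lists. Of 23 measured Sertoli genes of the SOX9 and SOX8 pathway, 4 rose in KO testes, 19 did not pass and none fell. Over all genes 2.52% were called higher. The median change of the list was 0.16. Those that rose were the neuregulin receptor gene Erbb4 (0.59), Cyp26b1, which encodes the enzyme that degrades retinoic acid (0.39), the inhibin subunit gene Inhbb (0.38) and the FSH receptor gene Fshr (0.36). Amh, the hormone gene that SOX9 is known to switch on, had 0.75 and did not pass (limma adjusted p = 0.0701), with 9.16, 8.11 and 8.97 in KO testes against 7.78 to 8.44 in WT testes. Amh was named after its value was seen. Against the KO littermates alone none of the 23 passed, and the differences were 0.55 for Erbb4, 0.36 for Cyp26b1, 0.32 for Inhbb and 0.28 for Fshr.

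Of 17 regulators known from meiotic and postmeiotic germ cells, 7 fell in KO testes, 10 did not pass and none rose. Over all genes 2.34% were called lower. The median change of the list was -0.39. The ciliary and spermatid factor gene Rfx2 fell by 1.07, Meioc, whose protein keeps germ cells in meiotic prophase, by 0.84, and the pachytene regulator gene Mybl1 by 0.87 on the log2 scale. Ythdc2, which encodes the RNA helicase that partners MEIOC, fell by 0.64. The differences from KO littermates alone were -0.86, -0.72, -0.77 and -0.58 in that order, and none passed. In these germ cell genes, as in Sox30, KO 2 was the KO testis nearest to WT, with Mybl1 at 8.55 in KO 2 and 7.78 and 7.81 in KO 1 and KO 3, against 8.63 to 9.16 in WT testes.

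None of the 12 matrix genes known from cartilage as targets of SOX9 with SOX5 and SOX6 passed in KO testes, and their median change was 0.07. Of these, Col9a2 had 0.20 and Col2a1 -0.12. Of 19 endothelial genes of the SoxF pathway none passed, with a median of 0.12, and Cdh5 and Vcam1 had 0.31 and 0.32. Of 9 partners and targets of SoxC proteins, 1 fell, the histone methyltransferase gene Ezh2 (-0.36, limma adjusted p = 0.0395), and 8 did not pass. Over all genes 2.34% were called lower. The median of the SoxC list was 0.14. Against the KO littermates alone Ezh2 was at -0.37 and did not pass. In KI testes no gene of any of these lists passed. The KI medians were 0.06 for the Sertoli list, -0.07 for the meiotic, -0.06 for the matrix, 0.12 for the endothelial and 0.01 for the SoxC list, where the median of all genes was -0.001. Without KI 1 they were 0.02, -0.02, -0.01, 0.03 and -0.02 in that order, with the SoxC median changing sign and no gene passing. The lists share genes with the marker lists, so they are not separate evidence.

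**Figure D4:**
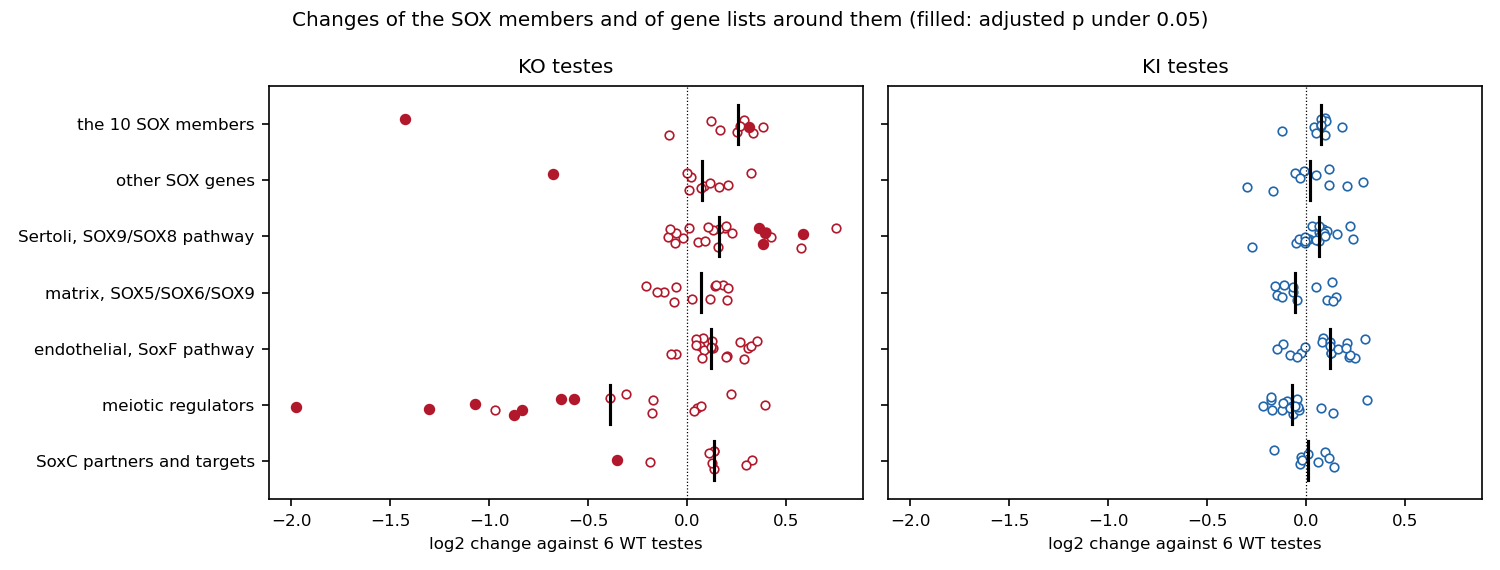
Difference from the 6 WT testes on the log2 scale for the 10 SOX genes, the other SOX genes and 5 gene lists around them, in KO testes (left) and KI testes (right). Each point is a gene, filled where it passed over all genes, and black bars are list medians. Filled points appear on the KO side only, below 0 for Sox30, Sox3, Ezh2 and 7 meiotic regulators, and above 0 for Sox5 and 4 Sertoli genes.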

How the data were processed

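Per the labels' protocols, RNA of each testis was extracted with Trizol, treated with DNase on RNeasy columns and labelled with the Affymetrix WT PLUS kit. The values deposited by the authors are log2 expression per transcript cluster, for 41345 clusters. Per the submitters' processing notes the tools included RMA, Partek 6.6 and Affymetrix Expression Console, and their order and the annotation release are not given here. RMA as a method includes a normalization between arrays, so changes are relative to the other genes of an array. Of the clusters 23521 had 1 gene symbol, 1814 several and 16010 none. A gene with several clusters (1082 genes) took the value of the cluster with the highest mean.

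All 12 arrays entered 1 limma 3.58.1 fit of 3 genotype groups (R 4.3.3, lmFit and eBayes, two-sided), with Benjamini-Hochberg adjustment over 22180 genes at 0.05. Comparisons by litter used a fit of the 4 label groups. The fits were tested on simulated data. Exact permutation tests, figures and sequence searches used Python 3.11.15, numpy 2.4.6, pandas 2.3.3 and matplotlib 3.10.9. Precision is limited by the number of arrays. The labels call replicates biological without naming litters, so litter is known only as the line. Residual correlations of same-numbered arrays of different groups ran from -0.03 to 0.16 and were not above 0.1 for every pair in any pair of groups, so the numbers were not taken as pairs.

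The 10 genes, the gene and marker lists and the tests were chosen with earlier results of these data known. Named genes were the 10 SOX genes, the other measured SOX genes, up to 4 genes past the test (or else the 2 of highest level) from each other list, and 3 genes of most similar level for each of the 3 SOX genes of smallest p.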

Additional observations from a re-analysis of the deposited data

How the results depend on the processing

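The 10 KO differences kept their direction under every alternative run, and none of the 10 genes passed in KI testes under any. Single calls were less stable. 2 of the 10 genes passed in KO testes; with 1 array left out this was 0 to 3, with the KO littermates as controls 0, and with a trended, robust prior 4 (Sox8 at adjusted p = 0.0303 and Sox9 at 0.0487 joined). Sox8 also passed among genes above the background limit (limma adjusted p = 0.0365). The number of all genes past the test in KO rose as well in these runs. It was 1078 of 22180 in the main fit, 2201 of the 14547 genes above the background limit and 2048 of 22180 with the trended, robust prior. It was 2 with KO littermates only, and 2 to 2323 with 1 array left out. KI against KO gave 2 genes above the background limit, 5 with the trended prior and 0 to 721 with 1 array left out, with 0 or 1 of the 10 genes (Sox30). The litters of WT gave 1 gene with the trended prior and 0 to 50 with 1 array left out. The exact test of the 10 genes in KO had 6 at p under 0.05 (18.8% of all genes), and 3 to 6 without 1 WT array; with 2 KO arrays it cannot reach 0.05.

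With the replicate block, Sox30 remained lower in KO (limma adjusted p = 0.00502), Sox5 did not pass (0.0699), Sox8 passed (0.046) and Sox30 was higher in KI than KO (0.0409). KI against KO gave 247 of all genes with that block. KO against WT, here WT of KI litters only, then gave 1468 genes. The labels' numbers are not known to pair testes, and in each pair of groups 4 of 6 arrays correlated best with their own number.

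Directions turned only for small differences. In KI, with WT of KO litters as controls, Sox8 became -0.0143 and Sox30 0.10. With all clusters of a gene averaged, the litter difference of Sox4 became 0.077. The difference of mutant effects became 0.0185 for Sox6 and -0.0022 for Sox8 with array weights, and -0.0083 for Sox8 with median centring. With 1 array left out, KI differences ran from -0.043 to 0.18 (Sox4), -0.0057 to 0.20 (Sox12), -0.002 to 0.0889 (Sox5), -0.0299 to 0.11 (Sox18) and -0.25 to 0.0769 (Sox30), and KI against KO of Sox17 from -0.093 to 0.0104. Litter differences ran from -0.15 to 0.0071 (Sox4), -0.19 to 0.0475 (Sox9), -0.0265 to 0.10 (Sox17) and -0.21 to 0.13 (Sox18). Differences of mutant effects ran from -0.0488 to 0.16 (Sox12), -0.10 to 0.0676 (Sox6), -0.19 to 0.0201 (Sox13), -0.0374 to 0.0754 (Sox8) and -0.0388 to 0.20 (Sox9). The cause of these shifts was not tested.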

Other observations

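The transcript on the strand opposite to Sox5, Sox5os3, has a cluster of its own on the array and was chosen after its values were seen. It was at 4.85, 4.80 and 4.62 in KO testes, 4.69, 4.60 and 4.56 in KI testes, and from 4.43 over a median of 4.82 to 4.89 in WT testes. All of these lie under the background limit of 5.33, and the groups overlapped.

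Other marker lists gave these values in KO against WT testes, where 2.52% of all genes were called higher and 2.34% lower. The median change of all genes was 0.04. Of 15 early meiotic markers 12 fell and 3 did not pass (median -0.88), and of 9 pan-germ cell markers 5 fell and 4 did not pass (median -0.60). Of 12 markers of undifferentiated spermatogonia 3 rose and 9 did not pass (median 0.14), and none of 7 markers of differentiating spermatogonia passed (median -0.17). Of 6 measured Leydig markers 1 rose (median 0.62), of 7 peritubular markers 1 (median 0.22) and of 8 interstitial fibroblast markers 2 (median 0.23). None of 8 macrophage (median 0.11) and 2 measured erythroid markers (median 0.16) passed. With the KO littermates as the only controls, 1 marker of undifferentiated spermatogonia rose and no other gene of these lists passed. Over all genes 0.00902% passed with those controls. The early meiotic median was then -0.80 and the pan-germ cell median -0.42.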
